A study of Mus musculus with 16 samples.

Results

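The comparison described here is that of urethral with bladder mesenchyme in female (XX) mouse embryos at embryonic day 16.5. It rests on 8 of the 16 libraries of the study, 4 of female pelvic urethra and 4 of female bladder, taken by their labels for sex and tissue. No male library enters this comparison, and the 8 male libraries are used only in the closing paragraphs, for the test of whether the tissue difference itself differs between the sexes. All animals were wild-type, untreated CD-1 mice, an outbred stock, and no group carries a transgene or an induced mutation. Each library is a pool of the female embryos of 1 litter, and the bladder and the urethra library of a litter come from the same pool, so the 4 litters give 4 pairs. The sources used here do not give the number of embryos in a pool. The epithelium had been stripped by trypsin digestion on ice and forceps, and poly(A) RNA was then sequenced with a kit that keeps strand.

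The bladder and the pelvic urethra both arise from the front portion of the cloaca, the common hindgut outlet of the early embryo. In the bladder, mesenchyme beneath the outer surface becomes the detrusor, a thick coat of smooth muscle whose contractile genes are switched on by serum response factor (SRF) and its partner myocardin at DNA sites called CArG boxes. The urethra has a thinner smooth muscle coat and, around it, a striated sphincter built by myoblasts under MyoD-family factors, which bind E-boxes. The pelvic ganglia, whose neurons drive both organs, lie beside the bladder neck and urethra. In females the lower ends of the Müllerian and Wolffian ducts also reach the dorsal wall of the urethra at this stage. Positional identity along the body axis and the genital tubercle is set in mesenchyme by Hox genes and other transcription factors, under WNT, BMP, FGF, hedgehog and retinoic acid signals.

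Library totals ran from 18577097 to 20808028 counts in the bladder and from 24447435 to 29698009 in the urethra, so depth went with tissue, and all levels below are CPM, a count as its share of the TMM-adjusted library total brought to the usual common size. A single count was worth 0.0316 to 0.0560 CPM. Per library 24338 to 25990 gene symbols had a count. The 20 most abundant genes took 5.87 to 6.68% of the counts in the bladder and 4.06 to 4.21% in the urethra. The first principal component held 86.8% of the variance and set the tissues apart, and the second held 4.95%. Counts of Xist, made from the silenced X chromosome, were 5593 to 9544 per library, and the Y-linked Ddx3y had 0 to 3. The 8 genes Vim, Col1a1, Col1a2, Col3a1, Pdgfra, Pdgfrb, Dcn and Acta2, which mark mesenchyme, were all expressed, with sums of 20342 to 24692 CPM in the bladder and 11272 to 12802 CPM in the urethra. In what follows, 4 values in a row are litters 1 to 4, and a log2 fold change is urethra against bladder. The ± after it is a standard error from the fitted model, whose variance draws on other genes too. It is not computed from the 4 paired differences of that gene alone. For Sall1 it was 0.50, while the SD of those differences was 1.72.

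Most genes differed between the tissues. Of 17337 genes tested with edgeR's quasi-likelihood test with litter as a block, 11756 (67.8%) had a Benjamini-Hochberg adjusted p under 0.05: 5887 (34%) were higher in the urethra and 5869 (33.9%) were lower. A difference of at least 2-fold was found for 2161 genes higher (12.5%) and 1608 lower (9.27%), while 5279 of the called genes differed by less than 1.5-fold. The CPM of the urethra and bladder libraries did not overlap at all for 9913 genes (57.2%), and 11517 of the called genes had the same sign in all 4 litters. These shares are the background against which each gene group below is read. With library totals in place of TMM scaling 7243 genes were higher and 4656 lower, since the median log2 fold change of all tested genes moved from -0.01 to 0.11; the share of called genes that were higher was then 60.9% instead of 50.1%. In bulk RNA a lower share of cells of a type and less RNA per cell cannot be told apart, which holds for every group below.

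The genes furthest up in the urethra were largely genes of autonomic neurons, and the genes furthest down were largely genes of striated and cardiac-type muscle. Vgf, a secreted neuropeptide precursor (GRCm38 chromosome 5, 137026392 to 137033351), stood at 0.218, 0.280, 0.254 and 0.472 CPM in the bladder and 16.6, 24.2, 15 and 27.6 CPM in the urethra. Its log2 fold change was 6.06 ± 0.15 (adjusted p = 1.77e-08). Next came Hmx1, a homeobox factor of sympathetic neurons, at 6.05 ± 0.23, Htr3b, a serotonin receptor channel subunit, at 6.03 ± 0.17, and Adcyap1, the precursor of the neuropeptide PACAP, at 5.98 ± 0.21. They were followed by March4, a ubiquitin ligase, at 5.95 ± 0.22, Mybph, a myosin-binding protein of striated muscle, at 5.91 ± 0.23, Slc18a3, the vesicular acetylcholine transporter, at 5.87 ± 0.21, and Chrm1, the M1 muscarinic receptor, at 5.82 ± 0.27. At the other end Plin4, a lipid droplet protein, had 20.3, 17, 46.3 and 24.3 CPM in the bladder and 0.379, 0.120, 0.129 and 0.199 CPM in the urethra, with a log2 fold change of -6.94 ± 0.28 (adjusted p = 2.92e-07). Hhatl, an acyltransferase-like protein of striated muscle, differed by -5.66 ± 0.27 on the log2 scale, the unnamed locus Gm9895 by -5.59 ± 0.18, and Myl7, the atrial regulatory myosin light chain, by -5.56 ± 0.25. Ckm, Pln, Popdc2 and Acta1, which complete the 8 lowest, are described with the muscle genes below. None of these 16 genes had overlapping libraries, which held for 57.2% of all tested genes and is favoured by picking extreme folds.

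The smallest p-values were those of genes whose 4 libraries of each tissue lay close together. Stmn2, a microtubule regulator of growing axons, had 33.7, 39.96, 31.0 and 39.5 CPM in the bladder and 457, 624, 452 and 542 CPM in the urethra, a log2 fold change of 3.84 ± 0.06 (adjusted p = 8.65e-09). Stmn4 (4.31 ± 0.07), the RNA-binding protein gene Elavl2 (3.79 ± 0.07) and the neuropeptide gene Vip (5.57 ± 0.11) were also among the 5 smallest of genes that rose. So was the fast myosin light chain gene Myl1 (5.0003 ± 0.10). Psd, a guanine exchange factor for small GTPases, led those that fell, with 439, 434, 467 and 451 CPM in the bladder and 48.4, 39.4, 44.6 and 40.2 CPM in the urethra and a log2 fold change of -3.38 ± 0.07 (adjusted p = 9.75e-09). It was followed by Csrp1 (-2.78 ± 0.06), a LIM protein of smooth muscle, by the thin-filament genes Cnn1 (-3.35 ± 0.08) and Tpm2 (-3.02 ± 0.07), and by Cavin3 (-2.43 ± 0.06), a caveolar coat protein. In all 10 genes the 4 libraries of one tissue lay on one side of the 4 of the other. That held for 57.2% of all tested genes, and picking the smallest p favours it.

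**Figure D1:**
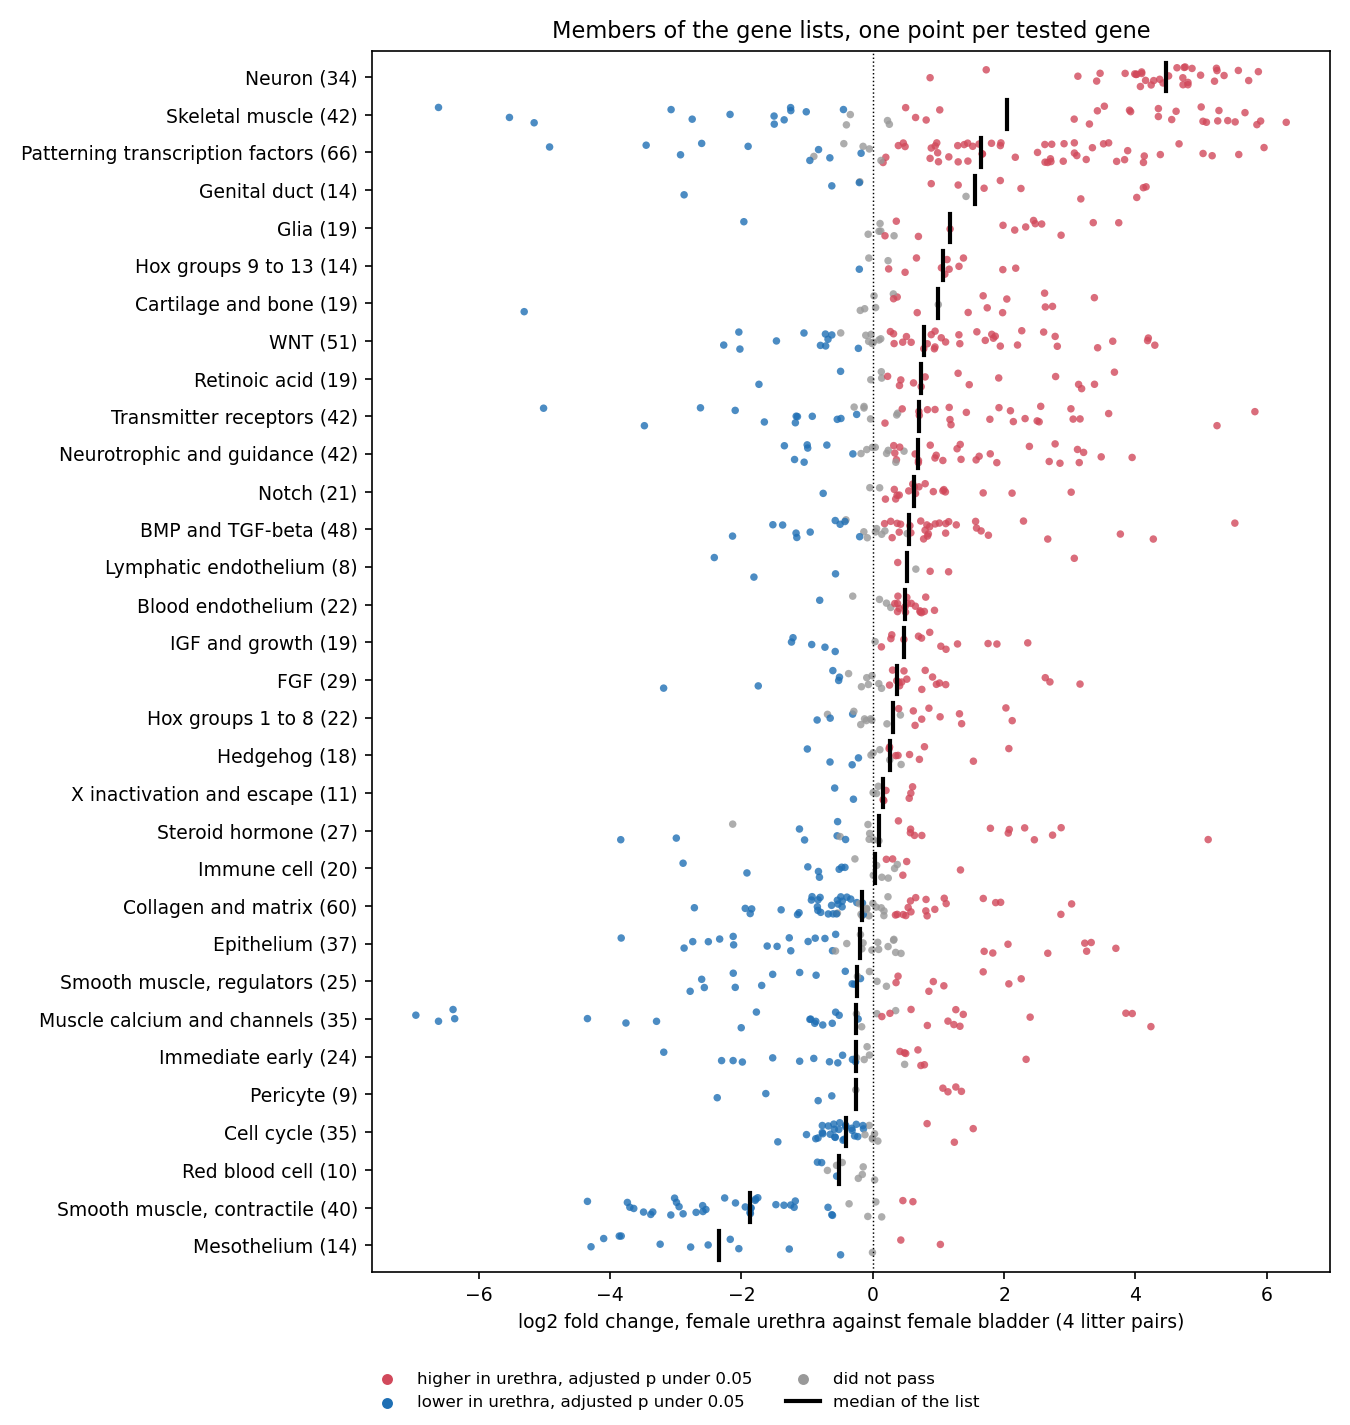
Log2 fold change of female urethra against female bladder (x axis) for every tested member of 32 gene lists (y axis, number tested in brackets), from 4 litter pairs; points are single genes coloured by call and black bars are list medians. The neuron list lies wholly to the right, with a median of 4.46, and the mesothelium and contractile smooth muscle lists lie furthest left, with medians of -2.34 and -1.87.

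The contractile apparatus of smooth muscle was lower in the urethra. Of 40 tested genes of this list 34 fell, 2 rose and 4 did not pass, with a median log2 fold change of -1.87 against -0.01 over all tested genes, of which 33.9% were lower, and 31 fell at least 2-fold. Summed over the list the libraries held 32308 to 43203 CPM in the bladder and 6956 to 8268 CPM in the urethra, which leaves a smooth muscle signal in every urethra library. Acta2, the smooth muscle alpha-actin, had 3648, 3579, 4240.3 and 3850.5 CPM in the bladder and 702, 571, 728 and 561 CPM in the urethra. Its log2 fold change was -2.59 ± 0.07 (adjusted p = 2.26e-08). Actg2, the enteric and bladder gamma-actin, fell more, from 2010.2, 1859, 2501 and 2177 to 205, 139, 205 and 144 CPM, a change of -3.64 ± 0.10 (adjusted p = 4.86e-08). Tagln, an actin-binding protein also called SM22, went from 3597, 3632, 3115 and 3232 to 283, 271, 291 and 186 CPM, a change of -3.74 ± 0.11 (adjusted p = 9.72e-08). Scaled per kilobase of transcript, Acta2 and Tagln were about as abundant in the bladder, at 1744 and 1707 CPM per kilobase, while in the urethra they were at 292 and 129.6.

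Myh11, the smooth muscle myosin heavy chain, was at 2758, 2627, 5219.9 and 3837 CPM in the bladder and 426, 312, 530.1 and 408 CPM in the urethra, with a log2 fold change of -3.08 ± 0.10 (adjusted p = 1.17e-07). Litter 3 had the highest Myh11 level in both tissues. Kcnmb1, the beta subunit of the BK potassium channel of smooth muscle, had the lowest fold of the list, at 59.8, 50.3, 80.6 and 64.5 against 4.80, 1.99, 3.43 and 2.42 CPM and -4.35 ± 0.19 (adjusted p = 1.19e-06). The Z-line protein gene Ldb3 (-3.70 ± 0.13), the intermediate filament genes Des (-2.95 ± 0.07) and Synm (-3.49 ± 0.33), the leiomodin gene Lmod1 (-3.38 ± 0.09), the myosin light chain kinase gene Mylk (-2.69 ± 0.07) and the regulatory light chain gene Myl9 (-2.54 ± 0.07) fell as well. The 2 members that rose were Sgcd, delta-sarcoglycan, from 7.19, 5.48, 8.03 and 7.34 to 9.38, 9.17, 11.3 and 13.1 CPM (0.61 ± 0.11, adjusted p = 0.00119), and Cap2, a cyclase-associated actin regulator (0.46 ± 0.05, adjusted p = 7.88e-05). Those that did not pass were Sgca, Sorbs2, Filip1l and Itga8, with log2 fold changes of -0.36, -0.08, 0.05 and 0.14.

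The regulators of smooth muscle were divided. Of 25 tested, 13 fell and 8 rose, against 33.9% and 34% of all tested genes, with a median of -0.23. Myocd, which encodes myocardin, was at 90.4, 82.7, 152 and 123 CPM in the bladder and 19.7, 14.1, 21.4 and 19.4 CPM in the urethra, a log2 fold change of -2.57 ± 0.10 (adjusted p = 1.67e-07). Srf, its DNA-binding partner, fell less, from 134, 123, 178 and 139 to 67.4, 57.7, 70.4 and 68 CPM (-1.11 ± 0.07, adjusted p = 1.23e-06). Of the other SRF cofactors Mrtfa did not pass (-0.05 ± 0.06) and Mrtfb rose by 0.38 ± 0.07. The LIM-domain genes Csrp1, Fhl2 and Fhl1 fell by 6.87-fold, 4.36-fold and 4.27-fold, and Gata6, a zinc-finger factor of visceral smooth muscle, went from 161, 168, 193 and 203 to 35, 35.9, 26.9 and 22.6 CPM (-2.61 ± 0.18, adjusted p = 4.46e-05). Members that rose included Smyd1 (2.26 ± 0.13), a histone methyltransferase of striated muscle, Foxf2 (2.07 ± 0.20), a forkhead target of hedgehog signals, and the Notch effectors Hey1 (1.68 ± 0.08), Hey2 (1.08 ± 0.14) and Heyl (0.92 ± 0.20).

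Because SRF acts at CArG boxes, RefSeq promoter windows of 250 bases before each gene's start (GRCm38.p6) were searched on both strands for the CArG box, which reads the same on either strand. A match stood in 482 of 32851 windows (1.47%) and in 174 of the 12136 tested genes with a window (1.43%). Among contractile smooth muscle genes 6 of 35 with a window held one (17.1%; Myl9, Myl6, Ldb3, Filip1l, Vcl and Dmd), and among the regulators 3 of 16 did (18.8%; Srf, Fhl1 and Fhl2, all lower in the urethra). Among all tested genes 2.19% of those lower and 0.979% of those higher in the urethra held a match. These are counts of letters and not of bound sites, and a window without a match says only that the letters are not in these 250 bases. The 4 windows below are shown with the CArG box in capitals, since they belong to genes that fell in the urethra: a myosin light chain, a Z-line protein, a LIM cofactor and the skeletal actin Acta1. They lie at chr2:156775214-156775463 (plus strand), chr14:34588682-34588931 (minus), chr1:43163962-43164211 (minus) and chr8:123894776-123895025 (minus).
Myl9: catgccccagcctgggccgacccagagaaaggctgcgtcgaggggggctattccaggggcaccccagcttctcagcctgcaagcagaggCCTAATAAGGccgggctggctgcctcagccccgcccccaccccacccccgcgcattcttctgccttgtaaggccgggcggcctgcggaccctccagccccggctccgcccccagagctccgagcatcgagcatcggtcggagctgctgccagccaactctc
Ldb3: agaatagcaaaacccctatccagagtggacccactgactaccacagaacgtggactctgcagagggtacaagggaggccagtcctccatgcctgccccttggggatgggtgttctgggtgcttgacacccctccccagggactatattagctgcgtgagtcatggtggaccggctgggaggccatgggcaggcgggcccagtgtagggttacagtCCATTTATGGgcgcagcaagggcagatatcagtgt
Fhl2: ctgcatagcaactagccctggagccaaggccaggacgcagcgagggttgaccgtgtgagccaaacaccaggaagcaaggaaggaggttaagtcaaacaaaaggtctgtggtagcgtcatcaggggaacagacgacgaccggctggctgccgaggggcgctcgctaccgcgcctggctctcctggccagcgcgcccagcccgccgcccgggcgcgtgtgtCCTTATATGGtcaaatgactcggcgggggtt
Acta1: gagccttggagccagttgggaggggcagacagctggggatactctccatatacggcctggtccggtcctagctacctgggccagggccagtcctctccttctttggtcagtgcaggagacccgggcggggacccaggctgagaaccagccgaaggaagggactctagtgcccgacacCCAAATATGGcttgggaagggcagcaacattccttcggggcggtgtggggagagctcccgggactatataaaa
Of these genes Myl9 went from 1497, 1551, 1804 and 1620.5 to 299, 255, 305 and 255 CPM and Ldb3 from 30.9, 33.0, 52.8 and 42 to 3.25, 2.51, 3.36 and 2.89 CPM. Fhl2 went from 85.5, 72.8, 97.4 and 81.5 to 20.6, 15.8, 22.1 and 19 CPM. In each case the lowest bladder library was more than 3-fold above the highest urethra library. The libraries of the tissues did not overlap for 57.2% of all tested genes.

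**Figure D2:**
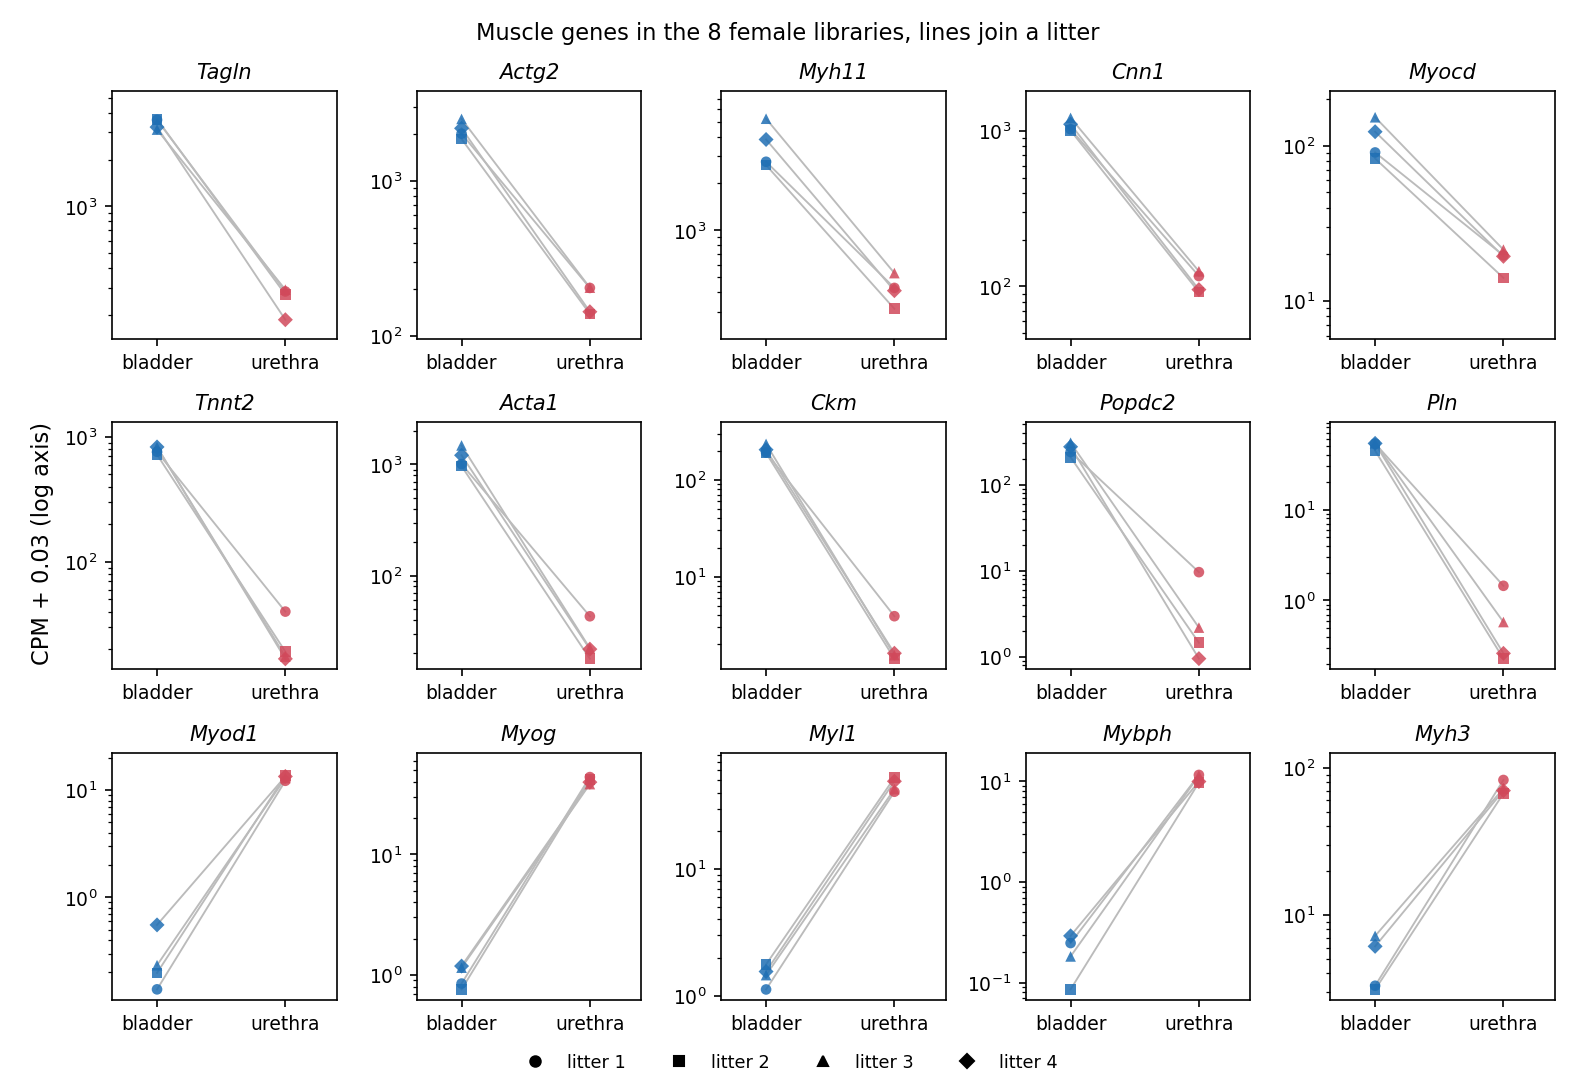
CPM plus 0.03 on a log axis for 15 muscle genes in the 8 female libraries (blue bladder, red urethra; symbols and joining lines are litters). The smooth muscle genes of the top row and the striated genes of the middle row fall in every litter, with the urethra of litter 1 highest for Acta1, Ckm, Popdc2, Pln and Tnnt2, and the myogenic genes of the bottom row rise in every litter.

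Genes of striated muscle split into a group that was high in the urethra and a group that was high in the bladder. Of 42 tested list members 25 rose and 13 fell, with a median of 2.04, against 34% and 33.9% of all tested genes. The sum over the 45 members ran the other way, at 2407 to 3107 CPM in the bladder and 501 to 599 CPM in the urethra, since the members that fell are the abundant ones. The determination factor Myod1 had 0.109, 0.168, 0.203 and 0.525 CPM in the bladder and 12.2, 13.6, 13 and 13.4 CPM in the urethra, a log2 fold change of 5.67 ± 0.25 (adjusted p = 2.06e-07). Myog, which drives differentiation of myoblasts, went from 0.817, 0.728, 1.12 and 1.15 to 43.8, 41.8, 38.3 and 39.8 CPM (5.41 ± 0.14, adjusted p = 1.77e-08). Myf5, a further member of that family, rose too (4.35 ± 0.27). The satellite cell factor Pax7 was at 0, 0, 0.102 and 0.0525 CPM in the bladder and 1.45, 1.4, 1.71 and 1.49 CPM in the urethra, and the fusion gene Mymk at 0, 0, 0.152 and 0.105 and 5.87, 5.74, 5.24 and 5.71 CPM; the bladder libraries had too few counts of these for a fold.

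Among the other striated muscle genes that rose, Myh3, the embryonic myosin heavy chain, went from 3.27, 3.08, 7.17 and 6.09 to 82.6, 66.9, 72.2 and 70.0 CPM (3.91 ± 0.23, adjusted p = 1.59e-05), and Ttn, the giant sarcomere spring titin, rose by 5.03 ± 0.37. The sarcoplasmic calcium genes Atp2a1 (3.85 ± 0.18) and Ryr1 (2.40 ± 0.14), a pump and a release channel of skeletal muscle, were higher as well. So were subunits of the acetylcholine receptor of the muscle endplate: Chrna1 had 0.163, 0.0560, 0.152 and 0.105 CPM in the bladder and 5.30, 3.87, 5.14 and 4.91 in the urethra, Chrnd 0, 0.0560, 0.0508 and 0 and 1.33, 1.4, 1.55 and 1.53, and the embryonic subunit Chrng 0, 0.112, 0.102 and 0.0525 and 3.22, 1.95, 2.88 and 2.89. In contrast Chrne, the adult subunit, fell (-1.01 ± 0.33), a call lost without litter 2 (adjusted p = 0.0792) or litter 4 (adjusted p = 0.0992). All 4 urethra libraries lay above all 4 bladder libraries for each gene of this paragraph but Chrne, for which they lay below. No overlap was found for 57.2% of all tested genes, and naming genes with large changes favours it.

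The striated genes that fell were abundant in the bladder. Acta1, skeletal alpha-actin, was at 1009, 966, 1483 and 1210.4 CPM in the bladder and 43, 17.8, 22.2 and 21.8 CPM in the urethra, a log2 fold change of -5.53 ± 0.31 (adjusted p = 3.73e-05). Tnnt2, cardiac troponin T, was at 759, 721, 827 and 829.8 and 39.96, 19.1, 17.4 and 16.7 CPM (-5.16 ± 0.29, adjusted p = 3.69e-05). Ckm, muscle creatine kinase, was at 192, 189, 235 and 204 and 3.88, 1.4, 1.52 and 1.59 CPM (-6.61 ± 0.29, adjusted p = 1.04e-05). Myl4, the atrial and embryonic light chain (-3.07 ± 0.08), and the fast troponins Tnnc2 (-2.75 ± 0.14) and Tnnt3 (-2.17 ± 0.09) fell as well. In the urethra the library of litter 1 held the most Acta1, Tnnt2 and Ckm, and the other 3 libraries lay close together. Per kilobase, Acta1 in the bladder (759.9 CPM per kilobase) was above Myh11 (475) and below Acta2 (1744).

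Calcium-handling and channel genes gave 13 higher and 18 lower of 35 tested, against 34% and 33.9% of all tested genes, with a median of -0.25. Pln, phospholamban, the brake on the calcium pump, was at 53.1, 44.3, 53.5 and 53.4 CPM in the bladder and 1.42, 0.199, 0.550 and 0.232 CPM in the urethra (-6.39 ± 0.36, adjusted p = 1.7e-05). Popdc2, a cAMP-binding membrane protein of heart and muscle, was at 239, 208, 306 and 275 and 9.63, 1.44, 2.17 and 0.929 CPM (-6.37 ± 0.60, adjusted p = 0.00032). Litter 1 stood out again in the urethra, as it did for Acta1. Pvalb, the calcium buffer parvalbumin, was at 8.83, 6.996, 8.29 and 7.76 CPM in the bladder and 0.0631, 0.0399, 0.0647 and 0.0664 CPM in the urethra. The calcium store protein gene Casq2 fell (-2.004 ± 0.08). The L-type calcium channel gene Cacna1c (-0.76 ± 0.11) and the chloride channel gene Ano1 (-0.87 ± 0.07) fell too, and Kcnma1, the BK channel pore whose beta subunit is Kcnmb1, passed only without litter 3, when its log2 fold change was 0.28 (adjusted p = 0.0104). The vascular KATP channel subunits Kcnj8 (1.26 ± 0.11) and Abcc9 (1.14 ± 0.10) rose.

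The E-box CAGCTG, one of those that MyoD-family factors bind, was looked for in the same promoter windows on both strands; it too reads the same on either strand. It stood in 4271 of 32851 windows (13%) and in 1817 of the 12136 tested genes with a window (15%). Among skeletal muscle genes 15 of 33 with a window held it (45.5%), 9 of 17 that rose and 5 of 11 that fell, so the letters were found on both sides of the split. The 3 windows below, of genes that rose, are shown with CAGCTG in capitals: a fast light chain, the embryonic endplate subunit and the gene with the highest fold of the list that could be given one. They lie at chr7:127211358-127211607 (plus strand), chr1:87205561-87205810 (plus) and chr1:134193198-134193447 (plus).
Mylpf: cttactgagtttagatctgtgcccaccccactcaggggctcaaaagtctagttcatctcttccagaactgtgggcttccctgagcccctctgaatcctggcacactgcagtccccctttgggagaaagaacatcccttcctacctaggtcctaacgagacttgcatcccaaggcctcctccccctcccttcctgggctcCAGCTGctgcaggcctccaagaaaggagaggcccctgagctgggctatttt
Chrng: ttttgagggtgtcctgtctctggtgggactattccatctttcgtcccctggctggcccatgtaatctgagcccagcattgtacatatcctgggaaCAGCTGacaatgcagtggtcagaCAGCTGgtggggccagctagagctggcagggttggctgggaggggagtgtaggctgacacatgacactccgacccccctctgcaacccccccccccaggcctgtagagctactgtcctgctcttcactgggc
Mybph: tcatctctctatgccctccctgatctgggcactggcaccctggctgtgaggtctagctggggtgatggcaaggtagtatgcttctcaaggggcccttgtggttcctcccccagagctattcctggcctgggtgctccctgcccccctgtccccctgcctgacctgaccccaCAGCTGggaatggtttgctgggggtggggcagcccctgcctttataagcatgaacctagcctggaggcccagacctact
Chrng has 2 matches in its window. The window of Acta1 shown above also holds 1 CAGCTG, although Acta1 fell. Mylpf was at 1.25, 1.73, 1.58 and 2.52 CPM in the bladder and 25.2, 18.3, 21 and 17.8 CPM in the urethra (3.53 ± 0.21, adjusted p = 2.07e-06), and Mybph at 0.218, 0.0560, 0.152 and 0.262 and 11.6, 9.73, 11.4 and 9.96 CPM (5.91 ± 0.23, adjusted p = 1.04e-07).

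Transcription factors that pattern limb, cloacal and genital mesenchyme were mostly higher in the urethra: 52 of 66 tested rose and 9 fell, with a median of 1.64. At least 2-fold changes were seen for 42 that rose and 5 that fell. Gata4 and Pitx1 went the other way from most. Gata4 was at 14, 14.9, 15.6 and 17.2 CPM in the bladder and 0.442, 0.798, 0.453 and 0.365 CPM in the urethra, a log2 fold change of -4.92 ± 0.20 (adjusted p = 1.1e-07). Pitx1 went from 191, 203, 214 and 194 to 31.6, 27.2, 24.3 and 22.8 CPM (-2.93 ± 0.09, adjusted p = 5.68e-08), and the T-box gene Tbx20 fell too (-1.90 ± 0.19). In contrast Gata2 rose from 77.7, 106, 72.2 and 81.9 to 255, 236, 269 and 308 CPM (1.67 ± 0.13, adjusted p = 2.48e-05) and Gata3 by 0.89 ± 0.07, so members of the GATA family were on opposite sides.

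Among the factors that rose, Isl1, a LIM-homeobox gene needed for cloacal mesenchyme, was at 12.6, 24.2, 14.4 and 11.2 CPM in the bladder and 180.5, 169, 170.4 and 171 CPM in the urethra (3.51 ± 0.20, adjusted p = 1.87e-05). Eya1, a transcriptional cofactor, went from 5.28, 10.4, 6.61 and 9.60 to 86.0, 104, 126 and 135 CPM (3.83 ± 0.14, adjusted p = 4.91e-07). Hand1, a basic helix-loop-helix factor, was at 0.817, 1.96, 0.915 and 1.47 and 19.7, 29.0, 23.5 and 34.2 CPM (4.38 ± 0.14, adjusted p = 4.63e-08). For each of these genes every urethra library exceeded every bladder library several-fold. The tissues did not overlap for 57.2% of all tested genes, and naming genes with large rises favours such a gap. Sall1 (5.03 ± 0.50), Vax1 (5.17 ± 0.57), Dlx5 (4.12 ± 0.53), Dlx6 (4.13 ± 0.50) and Osr2 (3.71 ± 0.32) rose as well, and the nuclear receptor Nr2f1 by 1.95 ± 0.15. Foxl2, known for its role in the ovary and eyelid, was at 0, 0, 0.152 and 0 CPM in the bladder and 2.78, 2.71, 2.94 and 2.72 CPM in the urethra. The other 5 members of the list did not pass.

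Hox genes, which set position along the body axis, were higher in the urethra at the 5′ end of the clusters. Of 14 tested genes of paralogue groups 9 to 13, 11 rose and 1 fell (median 1.07), and of 22 in groups 1 to 8, 10 rose and 3 fell (median 0.30). Hoxd13 went from 71.1, 87.5, 73.9 and 64.1 to 193, 164, 193 and 184 CPM (1.31 ± 0.10, adjusted p = 9.36e-06) and Hoxa13 from 44.9, 56.2, 57.7 and 46.7 to 109, 95.8, 119.8 and 125 CPM (1.13 ± 0.10, adjusted p = 2.48e-05). The largest folds of these groups were those of Hoxc9 (2.18 ± 0.18) and Hoxc10 (1.98 ± 0.12). Hoxa11 was the member that fell (-0.21 ± 0.07), with values of 50.9, 50.03, 54.2 and 50.05 CPM in the bladder and 45.7, 49.1, 42.9 and 40.7 CPM in the urethra. That call was lost without litter 1, 3 or 4 (adjusted p = 0.0545, 0.0834 and 0.0843) and with library totals (-0.09, adjusted p = 0.274).

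Split by cluster, a grouping made after the values were seen, the genes of groups 1 to 8 did not behave alike. All 7 tested Hoxb genes rose, led by Hoxb3, from 6.86, 11.3, 7.37 and 10.02 to 36.8, 34.9, 40.3 and 41.1 CPM (2.12 ± 0.14, adjusted p = 3.31e-06). Of 7 Hoxa genes 1 fell and none rose, the other 6 not passing; of 4 Hoxc genes 2 rose; and of 4 Hoxd genes Hoxd1 rose (2.03 ± 0.33) while Hoxd8 (-0.85 ± 0.08) and Hoxd4 (-0.65 ± 0.18) fell. In groups 9 to 13 all 5 tested Hoxd genes and all 3 tested Hoxc genes rose. Of 4 tested Hoxa genes of these groups 2 rose and 1 fell, and of 2 Hoxb genes 1 rose.

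**Figure D3:**
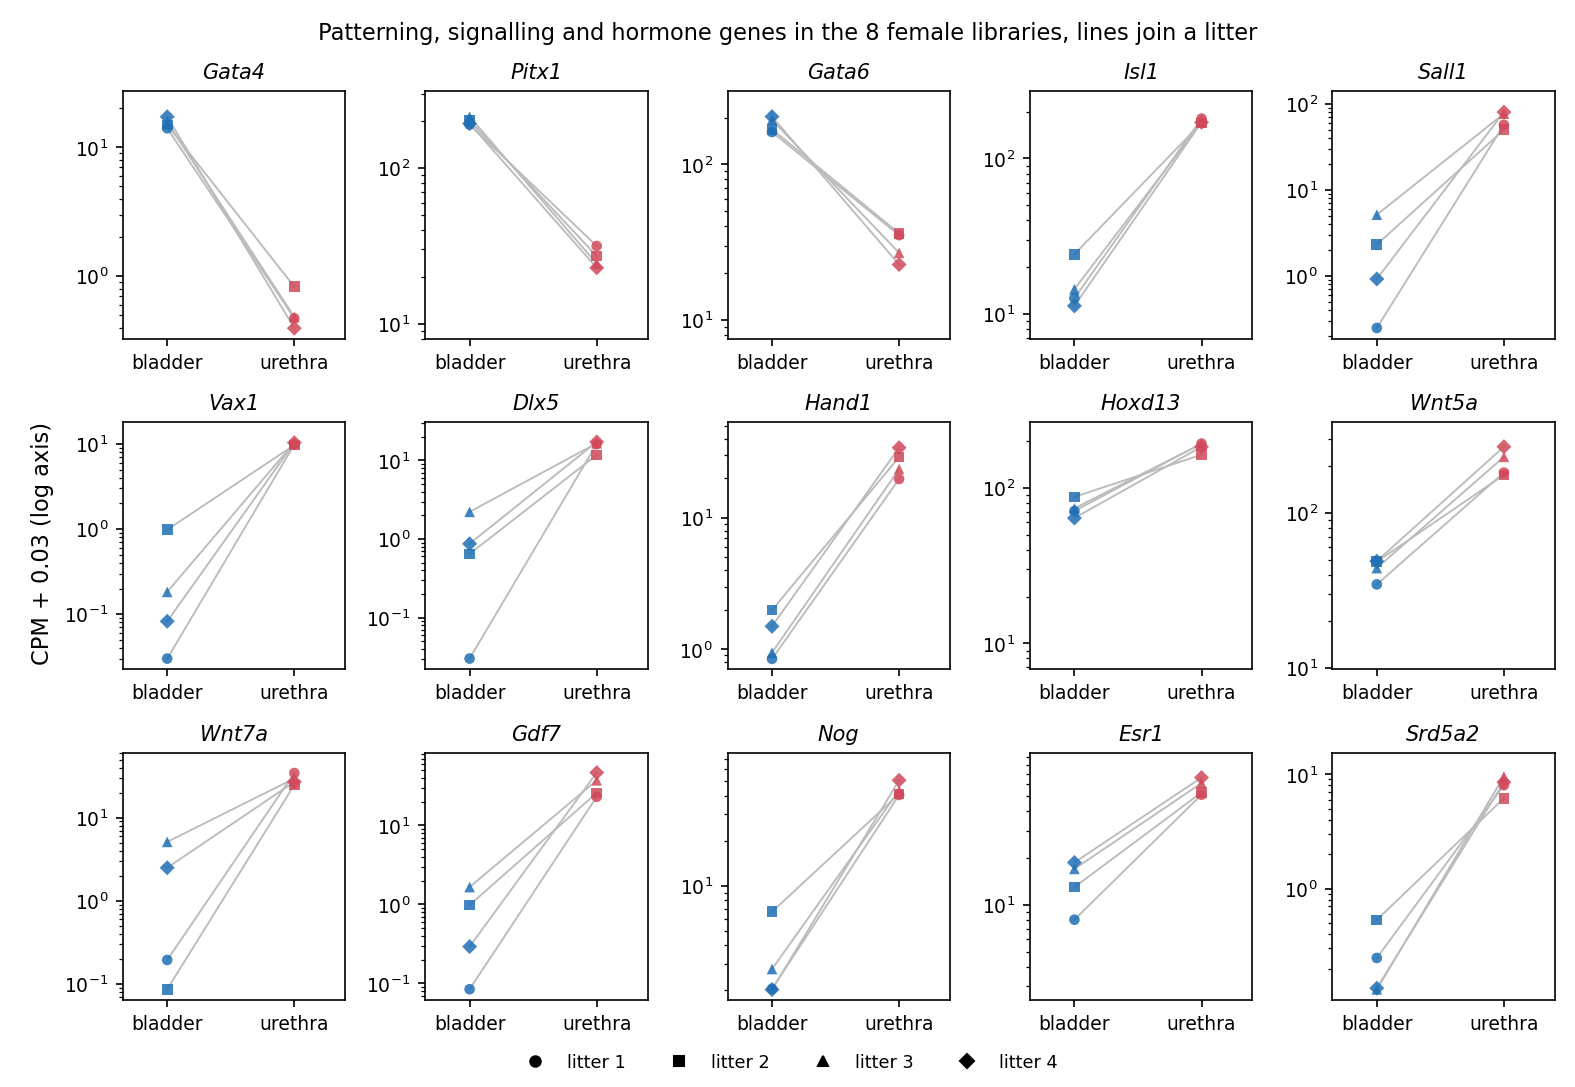
CPM plus 0.03 on a log axis for 15 patterning, signalling and hormone genes in the 8 female libraries (blue bladder, red urethra; symbols and joining lines are litters). Gata4, Pitx1 and Gata6 fall and the other 12 genes rise in all 4 litters, and the bladder values of Sall1, Vax1, Dlx5, Wnt7a and Gdf7 spread far more than their urethra values.

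WNT signalling genes were more often higher than lower in the urethra (32 and 11 of 51 tested, median 0.78). Over all tested genes the shares were 34% and 33.9%. Among ligands, Wnt5a, which signals in outgrowing mesenchyme, went from 34.6, 48.4, 44.1 and 48.8 to 181, 175, 229 and 266 CPM (2.27 ± 0.10, adjusted p = 4.75e-07), and Wnt6 rose by 2.20 ± 0.13. Wnt2 fell from 92.1, 80.8, 69.5 and 53.7 to 31.3, 24.8, 25.7 and 23.9 CPM (-1.47 ± 0.09, adjusted p = 1.13e-06), as did Wnt2b (-2.02 ± 0.10). The R-spondins, which boost WNT receptors, were on both sides: Rspo2 rose from 2.29, 5.82, 1.78 and 2.83 to 26.5, 34.2, 35.3 and 35.2 CPM (3.42 ± 0.25, adjusted p = 3.11e-05) and Rspo1 fell from 24.2, 30.7, 26.1 and 25.3 to 6.09, 5.70, 7.44 and 6.54 CPM (-2.04 ± 0.11, adjusted p = 6.59e-07). Their receptors were too, with Lgr5 at 1.94 ± 0.10 and Lgr6 at -2.27 ± 0.18. Fzd10 (2.81 ± 0.16) had the largest fold of the frizzled receptors.

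Several secreted inhibitors of the pathway rose, while its target genes lay on both sides of equality. Dkk2, a blocker of the co-receptor, went from 24.9, 29.8, 27.6 and 37.2 to 170.1, 174, 249 and 228 CPM (2.78 ± 0.10, adjusted p = 1.64e-07), and Dkk1 from 0.0545, 0.392, 0.0508 and 0.0525 to 2.75, 2.87, 1.97 and 3.22 CPM. The secreted antagonists Sfrp5 (4.20 ± 0.28) and Wif1 (3.65 ± 0.19) were low in the bladder, at 0.429 ± 0.277 and 0.519 ± 0.150 CPM (mean ± SD, n = 4). Of the target genes Axin2 went from 22, 22.9, 28.8 and 22.7 to 50.1, 41.8, 53.9 and 63 CPM (1.11 ± 0.10, adjusted p = 2.08e-05) and Lef1, also a nuclear effector, from 8.39, 9.74, 12.1 and 7.19 to 29.8, 29.5, 36.9 and 39.8 CPM (1.86 ± 0.14, adjusted p = 9.14e-06), whereas Nkd1 (-0.80 ± 0.06) and Notum (-0.72 ± 0.15), which are likewise induced by WNT in many tissues, fell.

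Of 48 tested genes of BMP and TGF-beta signalling 30 rose and 10 fell (median 0.54), against 34% and 33.9% of all tested genes. Of the ligands Gdf7 had the highest fold, from 0.0545, 0.951, 1.63 and 0.262 to 23, 25.7, 37.2 and 46.5 CPM (5.51 ± 0.44, adjusted p = 0.00012), Bmp4 rose from 74.1, 75.1, 67 and 56.0 to 131, 97.4, 149 and 152 CPM (0.95 ± 0.17, adjusted p = 0.00311; adjusted p = 0.0548 without litter 3) and the activin subunit gene Inhba by 2.29 ± 0.09, while Bmp5 (-1.37 ± 0.10) and Bmp6 (-1.52 ± 0.11) fell. The secreted BMP antagonists noggin and gremlin rose. Nog was at 2.02, 6.66, 2.74 and 1.99 CPM in the bladder and 40.3, 41, 43.2 and 50.5 CPM in the urethra (3.77 ± 0.34, adjusted p = 0.000214), and Grem1 at 0.490, 0.392, 0.966 and 0.525 and 10.2, 10.3, 12.5 and 13.1 CPM (4.27 ± 0.19, adjusted p = 1.93e-07). Chrdl1 rose (2.66 ± 0.09) and its relative Chrdl2 fell (-2.14 ± 0.17). Of the target genes Id3 (0.40 ± 0.08) rose and Id2 fell (-0.50 ± 0.06).

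FGF pathway genes gave 17 higher and 5 lower of 29 (median 0.36), against 34% and 33.9% of all tested genes. The intracellular FGFs Fgf13 (2.70 ± 0.07) and Fgf14 (3.16 ± 0.19), which act on neuronal sodium channels, led those that rose. The response genes Etv4, from 1.74, 2.29, 4.83 and 3.04 to 20.4, 16.7, 17 and 18.3 CPM (2.63 ± 0.25, adjusted p = 6.29e-05), and Dusp6, from 27.4, 33.0, 27.4 and 31.0 to 52.9, 50.9, 47.9 and 54.5 CPM (0.80 ± 0.07, adjusted p = 9.57e-06), rose. The ligand Fgf5 (-3.19 ± 0.25) and Fgfbp1 (-1.74 ± 0.34), a carrier that frees FGFs from matrix, fell. In the fit of 16 libraries 3 rather than 5 FGF genes were lower. Hedgehog pathway genes gave 9 higher and 4 lower of 18 (median 0.26), against 34% and 33.9% of all tested genes. The receptor and target Ptch1 rose by 0.56 ± 0.16 (adjusted p = 0.14 without litter 3) and the co-receptor gene Cdon fell (-0.65 ± 0.08). The target Gli1 passed only without litter 2 or with library totals (adjusted p = 0.0017 and 0.0305). Without litter as a block 2 rather than 4 hedgehog genes were lower, and with library totals 1 was.

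Retinoic acid genes were mostly higher, 14 of 19 against 2 lower (median 0.74). Stra6, the cell-surface importer of retinol, was at 3.60, 12.8, 10.6 and 8.60 CPM in the bladder and 101, 99.4, 114 and 128 CPM in the urethra (3.68 ± 0.28, adjusted p = 0.000104). Of the enzymes that make retinoic acid, Aldh1a3 went from 2.02, 1.23, 4.63 and 2.41 to 21.6, 20.4, 22.8 and 26 CPM (3.18 ± 0.25, adjusted p = 2.52e-05), and Aldh1a2, the most abundant of the 3 in both tissues at 85.9 and 115 CPM per kilobase, rose by 0.43 ± 0.07. The degrading enzyme gene Cyp26b1 (1.3 ± 0.11) and the receptor gene Rarb (1.47 ± 0.06), a target of the acid, rose as well. Tgm2, which retinoic acid induces in several cell types, fell from 221, 224, 237 and 239 to 68.9, 70.0, 70.4 and 67.5 CPM (-1.73 ± 0.05, adjusted p = 3.08e-08).

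Notch genes were higher in 18 of 21 cases and lower in 1 (median 0.63). The ligand Dll3 (3.02 ± 0.21) and the effectors Hes5 (2.12 ± 0.30) and Hey1 had the largest folds, and Jag1 (0.70 ± 0.09) and Notch3 (1.07 ± 0.09) changed less. Dlk1, an imprinted and non-canonical ligand, fell from 1115, 1044, 1069 and 1262 to 632, 725, 663 and 637 CPM (-0.76 ± 0.07, adjusted p = 2.43e-05). The imprinted growth genes Igf2, from 159, 165, 188 and 208 to 74.4, 80.1, 74.9 and 79.7 CPM (-1.21 ± 0.07, adjusted p = 8.21e-07), and H19, from 4090.0, 4331, 3986 and 4536 to 2176, 2500.2, 2151 and 2074 CPM (-0.93 ± 0.06, adjusted p = 2.52e-06), fell alongside it. In the IGF list, which holds these last genes, 13 of 19 rose and 5 fell, against 34% and 33.9% of all tested genes. Igf1 rose from 214, 221, 241 and 261 to 357, 395, 486 and 480.4 CPM (0.87 ± 0.06, adjusted p = 2.15e-06), as did the binding protein Igfbp3 (1.89 ± 0.07) and the protease Pappa2 (2.36 ± 0.17), whereas Igfbp6 fell (-1.24 ± 0.09).

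Receptors of oestrogen and progesterone were higher in the female urethra. Esr1, oestrogen receptor alpha, went from 8.01, 13, 17 and 18.7 to 51.2, 52.9, 60.8 and 66.0 CPM (2.06 ± 0.14, adjusted p = 7.2e-06) and Pgr, the progesterone receptor, from 3.05, 3.75, 2.69 and 3.51 to 12, 9.17, 11.4 and 12.5 CPM (1.79 ± 0.15, adjusted p = 7.74e-06). Esr1 levels in the bladder ran from 8.01 to 18.7 CPM, with litter 1 lowest, and did not reach those of the urethra. Greb1, a gene that oestrogen induces in many tissues, rose by 2.87 ± 0.15. Over the steroid hormone list 13 of 27 tested genes rose and 7 fell (median 0.09), against 34% and 33.9% of all tested genes.

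Steroid-converting enzymes were on both sides. Srd5a2, which turns testosterone into dihydrotestosterone, was at 0.218, 0.504, 0.102 and 0.105 CPM in the bladder and 7.99, 6.14, 9.54 and 8.5 CPM in the urethra (5.11 ± 0.34, adjusted p = 3.71e-06), while its relative Srd5a1 fell (-1.12 ± 0.09). Hsd11b2, which inactivates glucocorticoid, rose (2.31 ± 0.13), and Hsd11b1, which works in the opposite direction, fell from 5.56, 3.75, 5.85 and 2.41 to 0.284, 0.399, 0.259 and 0.266 CPM (-3.84 ± 0.25, adjusted p = 2e-06). Hsd17b2, which inactivates oestradiol and testosterone, fell (-2.99 ± 0.32). Rxfp1, the relaxin receptor, rose from 1.47, 2.29, 2.24 and 3.20 to 14.1, 11.3, 17.5 and 18.2 CPM (2.74 ± 0.16, adjusted p = 1e-06). Its relative Rxfp2 did not pass, with 12.3, 9.12, 3.51 and 25.7 CPM in the bladder and 1.93, 5.62, 2.98 and 0.199 CPM in the urethra, values that overlapped and varied widely between litters; it passed when litter was not a block (adjusted p = 0.0209).

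Neuronal genes were higher in the urethra without exception: 34 of 34 tested rose, with a median of 4.46, and the libraries of the tissues overlapped for none of them, against no overlap in 57.2% of all tested genes. Summed over the list there were 358 to 493 CPM in the bladder and 4882 to 7313 CPM in the urethra. Tubb3, neuronal beta-tubulin, had 9.92, 16.9, 12.6 and 8.60 CPM in the bladder and 359, 519, 392 and 479 CPM in the urethra (5.20 ± 0.15, adjusted p = 1.83e-07). Ret, the receptor of GDNF-family ligands, went from 8.28, 8.34, 8.84 and 6.45 to 162, 264, 179 and 268 CPM (4.74 ± 0.19, adjusted p = 2.98e-06). Litter 2 or 4 was the highest urethra library for Tubb3 and Ret, and litter 1 the lowest. How far ganglia taken along in the dissection set other differences was not tested.

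Both transmitter phenotypes of the pelvic ganglia were represented. The noradrenergic enzymes Th, from 1.42, 2.57, 3.25 and 1.94 to 26.5, 39.7, 39.1 and 61.1 CPM (4.15 ± 0.20, adjusted p = 1.46e-06), and Dbh, from 1.80, 5.15, 4.63 and 2.94 to 69.0, 114, 102 and 133 CPM (4.86 ± 0.17, adjusted p = 5.7e-07), rose. The cholinergic genes Slc18a3, from 1.20, 1.73, 1.17 and 0.525 to 50.8, 81.3, 60.4 and 79.2 CPM, and Slc5a7, the choline transporter, from 1.74, 1.4, 1.12 and 1.05 to 57.3, 91.3, 57.1 and 78.5 CPM (5.72 ± 0.15, adjusted p = 2.77e-08), rose too. Chat, choline acetyltransferase, went from 0, 0.168, 0.305 and 0.262 to 3.66, 5.27, 5.79 and 6.31 CPM. Nos1, which makes the transmitter nitric oxide, was at 1.85, 2.35, 3.96 and 2.73 and 71.6, 138, 88.6 and 123 CPM (5.24 ± 0.20, adjusted p = 1.01e-06), and Vip at 1.47, 1.4, 1.32 and 0.997 and 58.6, 76.1, 54.7 and 58.3 CPM. The smallest folds of the list were those of Hand2 (0.87 ± 0.08) and Ddc (1.73 ± 0.11), which mesenchyme or other cells also express.

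Glial genes were also mostly higher in the urethra: 13 of 19 tested were higher and 1 lower, with a median of 1.18. Over all tested genes 34% were higher and 33.9% lower. The summed level of the glial genes was 842 to 847 CPM in the bladder and 932 to 1146 CPM in the urethra. Sox10, which marks neural crest and Schwann cell precursors, went from 3.87, 5.20, 5.90 and 3.93 to 19.6, 28.2, 30.4 and 35.2 CPM (2.57 ± 0.14, adjusted p = 8.57e-07), and Gfra3 rose by 3.74 ± 0.16. The member that fell was Mal (-1.96 ± 0.21), which urothelium also expresses. Among trophic and guidance genes 27 of 42 rose and 7 fell. Gdnf, a ligand that acts through Ret, was at 0.109, 0.336, 0.457 and 0.367 CPM in the bladder and 4.17, 4.51, 5.34 and 5.84 CPM in the urethra (3.95 ± 0.24, adjusted p = 1.12e-06). The neurotrophins Ntf3, from 10.8, 10.5, 11.8 and 10.8 to 5.02, 2.99, 4.46 and 4.88 CPM (-1.35 ± 0.14, adjusted p = 3.12e-05), and Bdnf (-0.70 ± 0.15) fell, as did the repulsive semaphorins Sema3d (-1.19 ± 0.14), Sema3e (-1.05 ± 0.11) and Sema3a (-0.99 ± 0.05). Receptors found on neurons, such as Ntrk3 (3.21 ± 0.09), Robo2 (3.14 ± 0.25) and Gfra2 (2.85 ± 0.17), rose.

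Genes of transmitter receptors and their relays went in both directions (24 higher and 12 lower of 42, median 0.70). Over all tested genes the shares were 34% and 33.9%. P2rx1, the ATP-gated channel through which parasympathetic nerves contract the bladder, was at 30.8, 23.3, 49.2 and 35.9 CPM in the bladder and 1.36, 1.04, 1.20 and 0.664 CPM in the urethra (-5.01 ± 0.20, adjusted p = 2.15e-07). The muscarinic receptors Chrm3, from 8.17, 9.51, 15 and 12 to 2.68, 2.71, 2.07 and 2.82 CPM (-2.1 ± 0.20, adjusted p = 2.4e-05), and Chrm2, from 28.1, 19.2, 41 and 32.5 to 11.3, 16.5, 11 and 15 CPM (-1.15 ± 0.26, adjusted p = 0.00894; adjusted p = 0.0811 from litters 1 and 2 alone), and the tachykinin receptor Tacr2 (-3.48 ± 0.32) fell. All of these are receptors that contract the detrusor in the adult or modulate its contraction.

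On the other side were receptors and relays known from urethra, vessels and nerves. Ednra, an endothelin receptor, went from 21.2, 33.1, 36.2 and 32.1 to 155, 157, 189 and 204 CPM (2.53 ± 0.10, adjusted p = 2.41e-07), Agtr2, the angiotensin type 2 receptor, from 144, 158, 169 and 236 to 365, 412, 388 and 422 CPM (1.19 ± 0.09, adjusted p = 7.15e-06), and the adrenergic receptor genes Adra1d (3.16 ± 0.25), Adra2a (3.02 ± 0.22) and Adra2c (3.59 ± 0.28) rose. In the nitric oxide relay the cyclase subunit Gucy1a1 rose from 60.7, 86.7, 77.0 and 71.3 to 247, 272, 304 and 293 CPM (1.92 ± 0.07, adjusted p = 9.85e-08), and Pde5a, which degrades its product, fell from 295, 277, 416 and 320.5 to 133, 129, 162 and 155 CPM (-1.17 ± 0.06, adjusted p = 5.74e-07). Chrm1 and Nos1 of this list were described with the neuronal genes above.

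Endothelial genes rose slightly. Of 22 tested 17 were higher and 1 lower, with a median of 0.49, and 0 differed by 2-fold or more. They had summed levels of 559 to 872 CPM in the bladder and 889.6 to 1103 CPM in the urethra. Cdh5, the endothelial cadherin, went from 67.5, 57.1, 95.1 and 90.5 to 112, 127, 145 and 152 CPM (0.81 ± 0.09, adjusted p = 4.92e-05), Sox7 rose by 0.94 ± 0.10, and Egfl7 fell (-0.81 ± 0.10). Of 8 lymphatic genes 4 rose and 3 fell, against 34% and 33.9% of all tested genes. Prox1, which neurons also express, rose (3.07 ± 0.12). Lyve1, also a macrophage gene, fell from 41.2, 32.5, 47.1 and 50.5 to 11.1, 14.2, 14.7 and 8.995 CPM (-1.81 ± 0.19, adjusted p = 0.000177). Vegfd, a lymphatic growth factor, fell from 36.6, 27.8, 39.4 and 40.4 to 7.01, 6.18, 7.21 and 6.51 CPM (-2.41 ± 0.09, adjusted p = 9.83e-08).

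Pericyte genes gave 4 higher and 4 lower of 9, and of all tested genes 34% were higher and 33.9% lower. Pdgfrb went from 62.8, 54.3, 102 and 85.2 to 162.8, 161, 203 and 238 CPM (1.35 ± 0.09, adjusted p = 4.36e-06), and Ndufa4l2, a mitochondrial gene of pericytes, from 140.4, 112, 145 and 124 to 26.3, 34.7, 23.3 and 18.5 CPM (-2.37 ± 0.18, adjusted p = 6.94e-05). Of 10 red cell genes 3 fell and none rose, among them the haemoglobin gene Hbb-bs at 1036, 1021, 782 and 1045 CPM in the bladder and 529, 669, 547 and 514 CPM in the urethra (-0.78 ± 0.09, adjusted p = 9.99e-05); the globin genes have near-identical copies, so their reads are not securely assigned. Immune genes gave 5 higher and 8 lower of 20, against 34% and 33.9% of all tested genes. Their summed levels were 346 to 418 CPM in the bladder and 305 to 345 CPM in the urethra. The tissue macrophage genes Cd163, from 4.09, 4.20, 7.37 and 4.72 to 0.631, 0.957, 0.808 and 0.365 CPM (-2.89 ± 0.24, adjusted p = 7.4e-06), F13a1 (-1.92 ± 0.15) and Mrc1 (-0.83 ± 0.10) fell, the general macrophage gene Csf1r did not pass (0.14 ± 0.10), and Kit, found on mast cells and interstitial cells, rose (1.33 ± 0.10). The count of immune genes that rose was 3 without litter 1, 2 or 3.

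Mesothelial genes were lower in the urethra. Mesothelium is the thin outer covering of the bladder dome, which the pelvic urethra lacks. Of 14 tested genes 11 fell and 2 rose (median -2.34), and their sum was 1539.7 to 2071 CPM in the bladder and 646 to 821 CPM in the urethra. Muc16, a surface mucin, was at 41.6, 45.9, 38 and 32.2 CPM in the bladder and 1.77, 5.07, 1.46 and 0.730 CPM in the urethra (-4.29 ± 0.35, adjusted p = 0.000137), Lrrn4 at 92.8, 111, 94.1 and 93.5 and 7.26, 11, 7.18 and 2.82 CPM (-3.86 ± 0.27, adjusted p = 7.34e-05), and Msln, mesothelin, at 54.9, 67, 47.4 and 47.1 and 12.3, 13.4, 10.8 and 3.68 CPM (-2.51 ± 0.27, adjusted p = 0.000427). In the urethra litter 4 had the least of each. Efemp1 (1.03 ± 0.14) and Aldh1a2, which mesenchyme also expresses, were the members that rose, and Wt1 did not pass (-0.01 ± 0.06). The part of this covering in the other differences was not tested.

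Genes of the genital ducts were more often higher than lower in the urethra, 9 against 3 of 14 (median 1.56). Their summed level was not higher there, at 309 to 514 CPM in the bladder and 241 to 333 CPM in the urethra. The members that fell are also made elsewhere, Upk3a by urothelium and Wnt4 and Hoxa11 by mesenchyme. Which cells gave the signal was not tested, either for the members that fell or for those that rose. Pax2 (2.26 ± 0.23), Pax8 (3.17 ± 0.55) and Wnt9b (1.69 ± 0.38), which mark the epithelium of the ducts, rose. Calb1 was at 0.163, 0.168, 0.203 and 0.157 CPM in the bladder and 3.16, 3.39, 3.14 and 3.09 CPM in the urethra (4.16 ± 0.23, adjusted p = 7.16e-07), and Lhx1 at 0, 0, 0.457 and 0.157 and 3.19, 2.19, 3.10 and 2.72 CPM (4.12 ± 0.51, adjusted p = 0.000188). Wnt7a, made by Müllerian duct epithelium, was at 0.163, 0.0560, 5.08 and 2.47 CPM in the bladder and 34.5, 24.8, 29.6 and 27 CPM in the urethra (4.02 ± 0.70, adjusted p = 0.00403). Amhr2, the receptor for anti-Müllerian hormone in duct mesenchyme, did not pass, with 0.708, 0.895, 9.05 and 3.67 CPM in the bladder and 9.88, 8.22, 5.34 and 8.36 CPM in the urethra. In the bladder both were highest in litter 3 and next in litter 4, and without litter 3 Amhr2 passed, at a log2 fold change of 2.43 (adjusted p = 0.0289).

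Epithelial transcripts were still present and differed in kind between the tissues. The 37 epithelial genes summed to 3132 to 5932 CPM in the bladder and 1389.6 to 3721 CPM in the urethra, lowest in litter 3 of the bladder and litter 4 of the urethra. Of 37 tested 8 rose, 16 fell and 13 did not pass (median -0.19), and of all tested genes 34% were higher and 33.9% lower. Without litter 4, which had the lowest urethral level, 14 of the epithelial genes rose. The uroplakins, proteins of the urothelial surface, fell: Upk3a was at 306, 335, 148 and 197 CPM in the bladder and 70.5, 37.6, 25.7 and 14 CPM in the urethra (-2.87 ± 0.30, adjusted p = 0.000472), and Upk2 at 165, 183, 90.8 and 109 and 46.5, 28.2, 18.5 and 11 CPM (-2.50 ± 0.25, adjusted p = 0.000314). Upk3b, which mesothelium shares, fell too (-3.83 ± 0.31). Among the members that rose, Krt17 went from 3.05, 4.59, 2.95 and 4.56 to 51.3, 70.9, 31.5 and 15.5 CPM (3.33 ± 0.40, adjusted p = 0.000791), Pkp1 from 1.91, 3.58, 1.42 and 2.52 to 34.7, 60.1, 24.1 and 12.8 CPM (3.70 ± 0.30, adjusted p = 6.18e-05), and Krt14, a basal keratin whose libraries overlapped, from 9.70, 15.2, 7.98 and 11.6 to 56.0, 61.5, 33.5 and 11.5 CPM (1.70 ± 0.43, adjusted p = 0.0175). The Krt14 call was lost without litter 2 or 3 (adjusted p = 0.111 and 0.145). Epcam, a pan-epithelial gene, did not pass (0.23 ± 0.13), but did without litter 4 (0.40, adjusted p = 0.00233). The part of residual epithelium in the remaining differences was not tested.

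**Figure D4:**
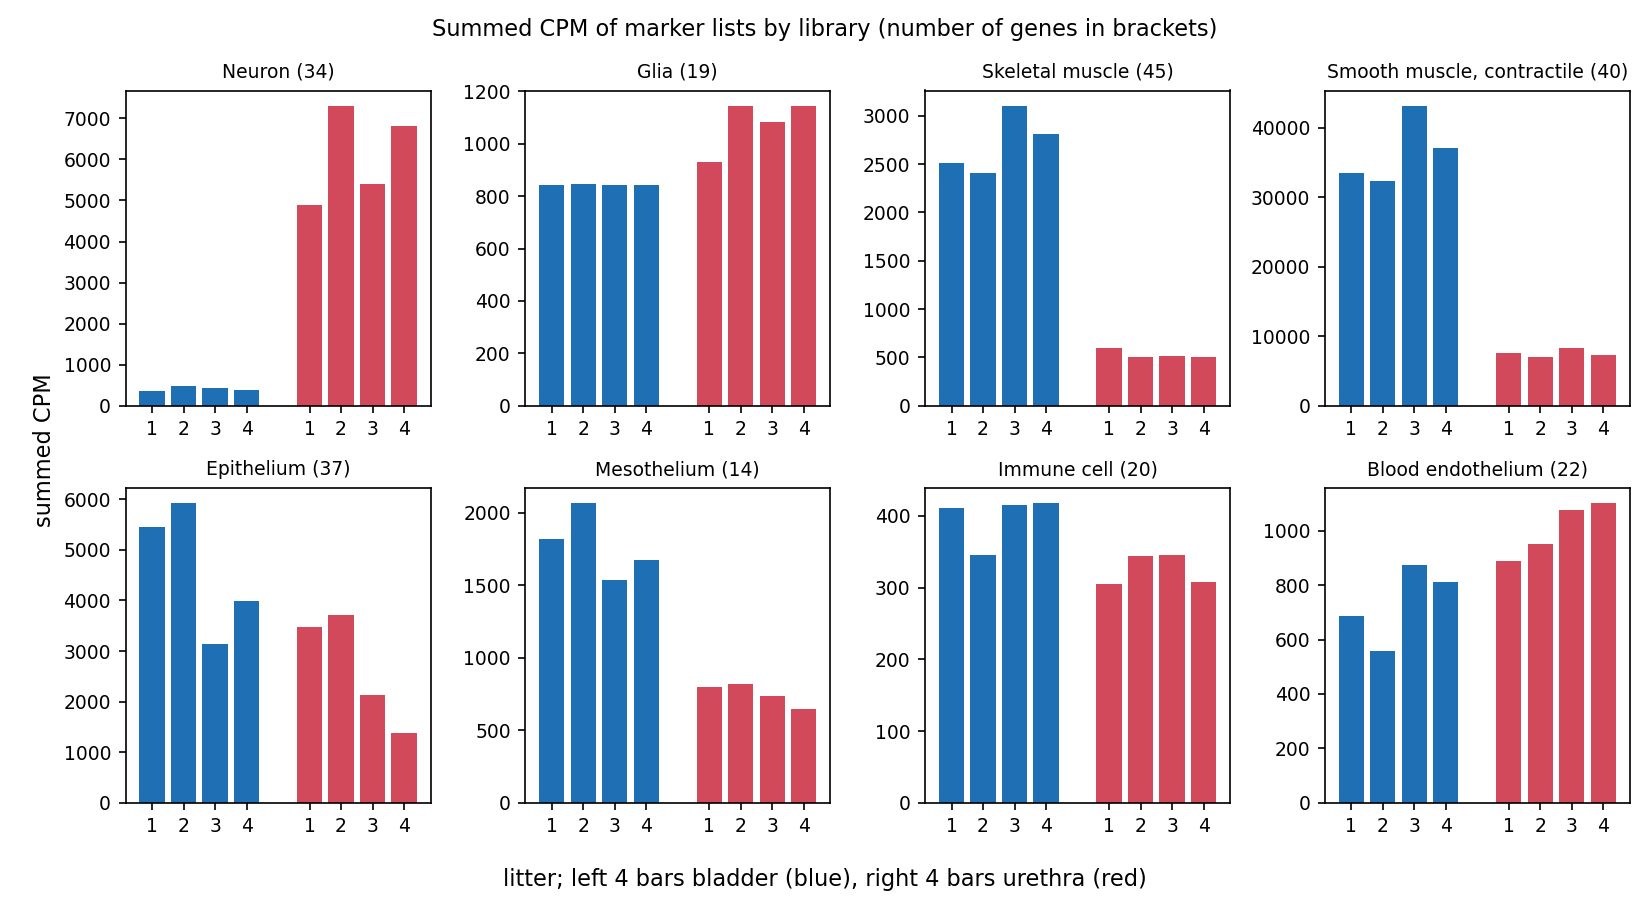
Summed CPM (y axes, each from 0) of 8 marker lists in each of the 8 female libraries (x axis, litters 1 to 4 of the bladder in blue, then of the urethra in red; number of genes in brackets). Neuron sums are 358 to 493 in the bladder and 4882 to 7313 in the urethra, contractile smooth muscle sums are 32308 to 43203 and 6956 to 8268, and epithelium sums overlap between the tissues.

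Matrix genes showed no common direction, with 19 higher and 28 lower of 60 tested (median -0.16), against 34% and 33.9% of all tested genes. The fibrillar collagen gene Col1a1 fell from 5559, 5046, 6986 and 5390.3 to 2354, 2590.4, 2736 and 2816 CPM (-1.12 ± 0.08, adjusted p = 3.09e-06), and Tnxb, a tenascin of elastic connective tissue, from 74.6, 56.0, 108 and 88.2 to 12.1, 17, 13.8 and 7.24 CPM (-2.72 ± 0.31, adjusted p = 0.000674). The small proteoglycan genes Prelp (-1.94 ± 0.15) and Fmod (-1.87 ± 0.09) fell as well. Tnc, the tenascin of moulding embryonic tissue, rose from 66.6, 65.1, 74.2 and 82.9 to 189.8, 219, 267 and 255 CPM (1.68 ± 0.07, adjusted p = 9.86e-08), and the adaptor Matn2 from 113, 125, 119 and 151 to 427, 429, 475 and 523 CPM (1.87 ± 0.06, adjusted p = 3.15e-08). The collagens with the largest rises were Col23a1 (3.03 ± 0.19), Col8a1 (2.86 ± 0.26) and Col26a1 (1.95 ± 0.09). Cartilage and bone genes were higher in 12 and lower in 1 of 19 cases (median 0.997); Col2a1 was at 0.872, 2.69, 1.17 and 1.31 CPM in the bladder and 14.6, 13.2, 18 and 15.7 CPM in the urethra (3.37 ± 0.28, adjusted p = 2.97e-05), Runx2 rose (2.74 ± 0.17), and Ibsp, bone sialoprotein, fell from 8.39, 10.2, 11 and 6.30 to 0.316, 0.120, 0.259 and 0.166 CPM (-5.31 ± 0.22, adjusted p = 1.49e-07).

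Proliferation genes were slightly lower in the urethra: 26 of 35 tested fell and 3 rose (median -0.41). Mki67, a marker of cycling cells, went from 289, 268, 352 and 281 to 178, 223, 237 and 259 CPM (-0.41 ± 0.09, adjusted p = 0.00505) and the cyclin gene Ccne2 from 111, 116, 70.5 and 75.5 to 37.9, 36.5, 32.1 and 28.1 CPM (-1.45 ± 0.09, adjusted p = 1.3e-06). The 3 that rose were the D-type cyclins Ccnd1, from 127, 157, 204 and 178 to 390.4, 506, 489.9 and 522 CPM (1.53 ± 0.07, adjusted p = 3.18e-07), and Ccnd2 (0.83 ± 0.06), and the cell cycle inhibitor Cdkn1a (1.24 ± 0.08). Immediate early and stress genes, which handling and digestion of tissue can induce, gave 7 higher and 12 lower of 24 (median -0.26). Over all tested genes 34% were higher and 33.9% lower. Summed levels of the immediate early and stress genes were 959 to 1057 CPM in the bladder and 857 to 1002 CPM in the urethra. Nr4a3 (-3.18 ± 0.18) and the heat shock genes Hspa1a (-2.13 ± 0.21) and Hspa1b (-2.30 ± 0.14), which are near-identical copies, fell, and Egr3 rose (2.33 ± 0.24). Whether handling differed between the tissues was not tested. Xist itself was lower in the urethra, at 489, 359, 428 and 370.4 CPM in the bladder and 277, 223, 284 and 317 CPM in the urethra (-0.58 ± 0.09, adjusted p = 0.00056), and Kdm6a, which escapes X inactivation, was higher (0.61 ± 0.05, adjusted p = 1.1e-05).

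The called genes that varied most between litters were high in the urethra and varied in the bladder. Ranking by the spread of a log2 difference favours genes near the floor in either tissue. Bladder counts ran from 0 to 17 for Vax1 and from 4 to 101 for Sall1. How much of the spread was counting noise was not tested. Among called genes with a mean of at least 5 CPM the paired log2 difference varied most between litters for Wnt7a (SD over 4 litters 2.54), Dlx5 (2.04), Sall1 (1.72), Vax1 (1.6) and Gdf7 (1.56). Dlx5 was at 0, 0.616, 2.19 and 0.839 CPM in the bladder and 16.2, 11.7, 16.5 and 17.2 CPM in the urethra. Sall1 was at 0.218, 2.29, 5.13 and 0.892 and 57.4, 50.3, 77.4 and 80.8 CPM. Vax1 was at 0, 0.951, 0.152 and 0.0525 and 9.85, 9.69, 10.3 and 10.3 CPM. The urethra libraries differed at most 1.07-fold for Vax1, 1.39-fold for Wnt7a, 1.47-fold for Dlx5, 1.61-fold for Sall1 and 2.03-fold for Gdf7. The spread thus lay mainly on the bladder side, which this ranking favours for genes so low there. The bladder library of litter 3 was highest for Wnt7a, Dlx5, Sall1 and Gdf7 and that of litter 2 for Vax1, and litter 1 was lowest for all but Wnt7a, for which litter 2 was lowest. Conversely the urethra library of litter 1 was highest for the bladder-type genes Acta1, Ckm, Tnnt2, Popdc2 and Pln. Whether tissue from beside the boundary was taken along in these pools was not tested.

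To ask whether the tissue difference in females is unlike that in males, the interaction of tissue and sex was tested over all 16 libraries with a block for each pool, in which 18254 genes were tested. It passed for 147 genes (0.805%): in 39 (0.214%) the urethra-minus-bladder difference was higher in females and in 108 (0.592%) it was lower. Of the 147, 120 were also called in the female comparison and 57 had opposite signs in the sexes. Leaving out a litter lowered the count to 47 without litter 1, 105 without litter 2, 84 without litter 3 and 55 without litter 4. In the following the male fold comes from this 16-library fit, and levels are means ± SD over 4 libraries. Ramp1, which pairs with the calcitonin receptor-like receptor to bind CGRP, changed by -2.84 ± 0.08 in females and -1.05 ± 0.07 in males, a difference of -1.80 ± 0.10 (adjusted p = 3.78e-05). Its CPM were 44.3 ± 3.23 in female bladder and 6.15 ± 0.742 in female urethra, against 41.5 ± 5.32 and 19.9 ± 2.07 in males. Nt5e, the ectonucleotidase CD73, changed by -2.49 ± 0.11 in females and 0.35 ± 0.11 in males, a difference of -2.85 ± 0.17 (adjusted p = 6.91e-05). Its CPM were 45.4 ± 8.75 and 7.94 ± 0.540 in female bladder and urethra and 45.8 ± 7.91 and 57.9 ± 2.05 in male. The urethra, more than the bladder, was where the sexes differed in level for both genes.

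Glp2r, the receptor of glucagon-like peptide 2, changed by -2.67 ± 0.18 in females and 1.11 ± 0.17 in males with a difference of -3.79 ± 0.29 (adjusted p = 0.000259), Lmcd1, a LIM protein that represses GATA6, by -1.71 ± 0.07 and -0.73 ± 0.06 with a difference of -0.99 ± 0.08 (adjusted p = 0.000614), and Aldh1a1, a retinaldehyde dehydrogenase, by -0.49 ± 0.15 (adjusted p = 0.0594 without litter 2, 0.0703 without litter 4 and 0.0603 with library totals) and 1.76 ± 0.12 with a difference of -2.25 ± 0.18 (adjusted p = 0.000614). The 5 smallest p-values in the other direction were those of Gdf5, a joint-forming BMP ligand, at 0.85 ± 0.14 in females and -0.64 ± 0.14 in males (1.48 ± 0.19, adjusted p = 0.00409), of the secreted protein gene Fibin (0.52 ± 0.07, adjusted p = 0.00447), of Pamr1 (0.87 ± 0.11, adjusted p = 0.00487), of Tent5a (0.81 ± 0.11, adjusted p = 0.00575) and of Cap2 (0.51 ± 0.07, adjusted p = 0.00679).

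Of 60 tested matrix genes 5 passed the interaction test (Col24a1, Col8a2, Ogn, Col4a6 and Col4a5), against 0.805% of all genes, and all had a lower difference in females. Col4a5 and Col4a6, basement membrane chains that lie head to head on the X chromosome, differed by -0.69 ± 0.07 (adjusted p = 0.0016) and -0.87 ± 0.09 (adjusted p = 0.00157). Of 40 tested contractile genes 4 passed: Cap2, given above, and Nexn (0.40 ± 0.08, adjusted p = 0.0404) had a higher difference in females, and Itga8 (-0.52 ± 0.10, adjusted p = 0.0402) and Smtnl2 (-0.50 ± 0.09, adjusted p = 0.0284) a lower one. Of the WNT antagonists Sfrp2 changed by 0.09 ± 0.08 in females and 1.14 ± 0.09 in males, a difference of -1.05 ± 0.12 (adjusted p = 0.00409). Sfrp4 changed by 0.12 ± 0.32 and 2.63 ± 0.34, a difference of -2.52 ± 0.45 (adjusted p = 0.0405). Fkbp5, a gene that glucocorticoid induces, changed by -0.41 ± 0.07 in females and 0.64 ± 0.08 in males (-1.06 ± 0.11, adjusted p = 0.00224). Hoxb9 was the only Hox gene, at 1.16 ± 0.09 and 1.80 ± 0.07 (-0.64 ± 0.11, adjusted p = 0.0197). Trim63 (-1.65 ± 0.19, adjusted p = 0.00275), a ubiquitin ligase of muscle, and Ibsp (-3.49 ± 0.63, adjusted p = 0.0459) had lower differences in females, and Ryr3 (1.09 ± 0.19, adjusted p = 0.0276), a calcium release channel, and the serotonin receptor gene Htr4 (2.51 ± 0.46, adjusted p = 0.0325) had higher ones. No member of the neuron, glia, patterning factor, Notch or hedgehog lists passed. The same held for other lists, among them blood endothelium, FGF, IGF and cell cycle. With 0.805% of all genes passing, lists of such sizes often hold none. The fitted log2 folds of females and males were 5.87 and 3.88 for Slc18a3 and 5.20 and 4.12 for Tubb3, with interaction adjusted p-values of 0.519 and 0.703. The male bladder library of litter 3 stood apart for both, at 13.4 CPM against 0.452 to 3.26 for Slc18a3 and 81.5 CPM against 5.07 to 31.3 for Tubb3. Without litter 3 in either sex the difference between the sexes was 0.93 rather than 1.98 for Slc18a3 (adjusted p = 0.735) and 0.44 rather than 1.08 for Tubb3 (adjusted p = 0.879). Srd5a2, at 5.11 and 6.17, did not pass either (adjusted p = 0.713), nor did Esr1, at 2.06 and 0.84 (adjusted p = 0.0836). Of the genes for which a difference is given above, Ramp1, Nt5e, Glp2r, Lmcd1, Aldh1a1, Col4a5, Col4a6, Trim63 and Fkbp5 passed the interaction test whichever litter was left out. In contrast Cap2, Fibin, Gdf5, Pamr1, Tent5a, Hoxb9, Htr4, Ibsp, Itga8, Nexn, Ryr3, Sfrp2, Sfrp4 and Smtnl2 did not without at least 1 of them. A p that misses the threshold does not show that the sexes are alike for these genes.

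**Figure D5:**
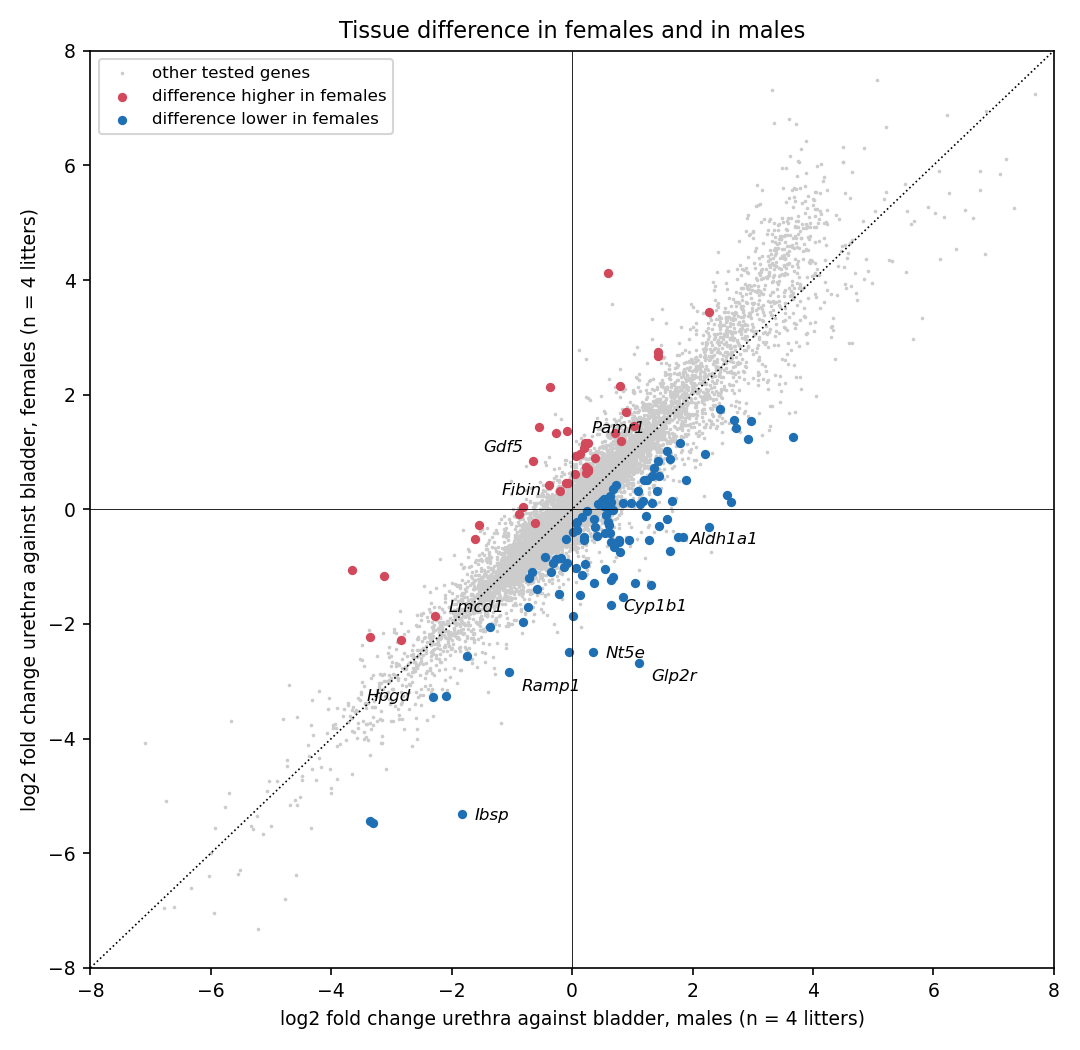
Log2 fold change of urethra against bladder in females (y axis) and in males (x axis), 1 point per gene, from 4 litters per sex; the dotted line marks equal change and coloured points are genes whose difference between the sexes passed the interaction test (red higher, blue lower in females). Nt5e and Glp2r lie below 0 in females and above 0 in males, and Gdf5 lies above 0 in females and below 0 in males.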

How the data were processed

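The authors deposited raw read counts per gene symbol, made with featureCounts per the file headers. Per the submitters' processing notes the authors' tools included HISAT2 2.1.0 and Subread 1.6.3 on GRCm38; other settings are not given in the sources used here. A deposited table of normalised values was not used. The 8 female libraries were fitted in edgeR 4.0.16 (R 4.3.3) with TMM scaling, filterByExpr, and the quasi-likelihood test with robust fitting, with litter as a block and Benjamini-Hochberg adjustment over 17337 genes. The block is in the main model because the labels give both tissues of a litter as 1 pool; deviations of same-litter libraries correlated at 0.161 to 0.444, above 0.1 in 4 of 4 pairs, and those of different litters at -0.427 to 0.398; 3 of 4 libraries correlated best with their own litter. Standard errors are the log2 fold change divided by the root of F. The interaction was fitted over 16 libraries with pools as blocks. Alternatives used DESeq2 1.42.0 and limma 3.58.1. Replicates of a group differed beyond counting noise in all 12 pairs.

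Named genes were the 8 highest and 8 lowest log2 fold changes, the 5 smallest p per direction, up to 2 per direction for each of 33 lists, the 5 most variable between litters and the 5 smallest interaction p per direction. They had to be called, with 1 sign in 4 litters and at least 3 mean counts in the lower tissue; further list members were added after their values were seen, and some genes under the rule are not reported here. Members and lists (920 genes, 915 in the table) were chosen with earlier results of these data known. The count test was also run on simulated counts with few changed genes and no litter effect. Those counts cannot show how scaling or pairing behaves where most genes differ. The p-values rest on the spread of the tissue difference between pools, with a variance that draws on other genes too.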

Additional observations from a re-analysis of the deposited data

Results flagged for a closer look

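In groups of 4 libraries the highest or lowest one stood apart when its gap to the next was above Dixon's 95% critical value as a share of the range. Chance flags about 1 in 20 groups, and 31 of 574 were flagged (5.4%). Litter 2 of the bladder was the highest for Lrrn4 (111 CPM), Nog (6.66 CPM), Vax1 (0.951 CPM) and Dkk1 (0.392 CPM). Litter 2 of the bladder was the lowest for F13a1 (80.1 CPM), Pln (44.3 CPM), Tnnt3 (26.4 CPM) and Hhatl (13.7 CPM). Litter 3 of the bladder was the highest for Tbx20 (65.8 CPM), Sorbs2 (47.1 CPM), Axin2 (28.8 CPM) and Foxl2 (0.152 CPM). Litter 3 of the bladder was the lowest for Hbb-bs (782 CPM) and Col4a5 (189.8 CPM). Litter 4 of the bladder was the highest for Sfrp2 (485 CPM), Col8a2 (175 CPM) and Adra2c (0.315 CPM). Litter 1 of the urethra was the highest for Isl1 (180.5 CPM), Tnnt2 (40.0 CPM), Popdc2 (9.63 CPM) and Ckm (3.88 CPM). Litter 1 of the urethra was the lowest for Vim (789 CPM) and Rspo2 (26.5 CPM). Litter 2 of the urethra was the highest for Ttn (10.8 CPM), Bmp6 (8.496 CPM) and Hoxd1 (1.64 CPM). Litter 2 of the urethra was the lowest for Hoxd4 (1.12 CPM) and Pvalb (0.0399 CPM). That Pvalb level is 1 count, and the Foxl2 level of bladder litter 3 is 3 counts, so flags at such levels can rest on single reads. Litter 4 of the urethra was the highest for Bdnf (4.32 CPM). Litter 4 of the urethra was the lowest for Fgfbp1 (1.16 CPM) and Fgf5 (0.0996 CPM).

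The log2 difference between urethra and bladder differed between females and males, by the interaction test of edgeR over 16 libraries (adjusted p under 0.05), for 26 of the genes named above. As female minus male it was higher in females for Htr4 (2.51), Gdf5 (1.48), Ryr3 (1.09), Pamr1 (0.87), Tent5a (0.81), Fibin (0.52), Cap2 (0.51) and Nexn (0.40). It was lower in females for Glp2r (-3.79), Ibsp (-3.49), Nt5e (-2.85), Sfrp4 (-2.52), Aldh1a1 (-2.25), Ramp1 (-1.80), Trim63 (-1.65), Col24a1 (-1.39), Fkbp5 (-1.06), Sfrp2 (-1.05), Lmcd1 (-0.99), Col4a6 (-0.87), Ogn (-0.76), Col8a2 (-0.73), Col4a5 (-0.69), Hoxb9 (-0.64), Itga8 (-0.52) and Smtnl2 (-0.50).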

How the results depend on the processing

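The counts of genes higher and lower in the female urethra, overall and at 2-fold, stayed within 1.5 times their value under all 14 alternatives, and no called gene was called in the opposite direction in any of them. Litter as a replicate block follows from the labels; without the replicate block 5511 genes were higher and 5360 lower, and 91.9% of the called genes kept their call. Beside Rxfp2, the hedgehog count and the values given with them above, dropping the block ended the calls of Ryr3 (adjusted p = 0.0528) and Dcn (adjusted p = 0.0705) in females and the interaction calls of Cap2 (adjusted p = 0.112), Itga8 (0.265), Nexn (0.348) and Ryr3 (0.0768). Leaving out 1 litter gave 5291 to 5687 higher and 5190 to 5699 lower. Library totals shifted the median of all genes to 0.11 and the share higher to 60.9%. From litters 1 and 2 alone, the litters with more epithelial RNA in the urethra, 4903 were higher and 4944 lower.

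The count of genes whose tissue difference differed between the sexes, 147, moved by over 1.5 times under some alternatives. It was 244 without the filter on low counts, where more genes were tested. Without litter 1, 3 or 4 it was 47, 84 and 55, with fewer litters in the fit. It stayed within 1.5 times at 122 without the block and 105 without litter 2. The same held for 144 with DESeq2 size factors and 161 with library totals.

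For the 288 tested genes named above, direction and call were kept in 3946 of 4032 combinations of gene and alternative. The sign changed in 18, all of genes that had not passed; the cause was not tested. With library totals Mrtfa came to 0.068, Sorbs2 to 0.044 and Wt1 to 0.11. Without the filter Mrtfa came to 0.018 and Wt1 to 0.064. With the epithelium score beside the replicate block Kcnma1 came to -0.023, and with the score and no block Kcnma1 came to -0.077 and Filip1l to -0.0011. From litters 1 and 2 alone Mrtfa came to 0.010. With 1 litter left out Kcnma1 ranged from -0.067 to 0.28, Filip1l from -0.020 to 0.089, Mrtfa from -0.091 to 0.0024, Sorbs2 from -0.16 to 0.0082, Sfrp4 from -0.072 to 0.59 and Wt1 from -0.054 to 0.045. Of the lists, the immune median changed sign without litter 1 or 3, and the epithelium median did without litters 3 and 4. With 4 pairs, genes under about 3 counts per library were given as levels alone.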
